A study of Mus musculus with 17 samples.

Results

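Cholesterol synthesis and its control were followed through 32 genes chosen by symbol, out of 55357 genes in the deposited tables, and all 32 were among the 22762 genes that passed the filter on low counts. They comprise 18 enzymes of the pathway, 5 genes of SREBP control, 5 genes of the LXR receptors and their targets, and 4 genes of sterol transport and storage. The symbols were chosen for function, but with earlier results of these data known. RNA was sequenced from 17 samples of tdTomato+ β cells, sorted from islets of male mice that had spent 72 hours in culture at 2.8 mM (low) or 16.7 mM (high) glucose. Control samples, labeled WT, came from *tdTomato* mice, in which RIP-Cre (Cre under the rat insulin promoter) switches on a *Rosa26* tdTomato reporter, and numbered 3 at low and 4 at high glucose. *Pcbp2*βKO samples carried the same Cre and reporter with floxed *Pcbp2* alleles, written *Pcbp2* Fl/Fl, and numbered 5 at each concentration, so that both genotypes were sorted for cells in which the Cre had acted. Ages are not given in the sources used here, and neither is whether samples came from separate animals or pools, so p values measure only the spread between these samples.

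Cells make cholesterol from acetyl-CoA through mevalonate, farnesyl diphosphate, squalene and lanosterol. SREBP transcription factors are made as membrane precursors that SCAP escorts out of the endoplasmic reticulum when sterol is scarce and that INSIG proteins retain when it is plentiful, and the processed factors switch on the enzyme genes together with NF-Y and Sp1. LXR receptors act in the opposite situation: they bind oxysterols and switch on sterol exporters. In β cells, cholesterol is a component of insulin granule membranes and of the plasma membrane sites at which granules fuse.

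Because these genes are known to share promoter elements, their promoters were read from RefSeq (GRCm38.p6), from 250 bases before to 50 bases after the start of each gene, and searched on both strands. An entry was found for 26 of the 32 genes (none for *Fdps*, *Fdft1*, *Sqle*, *Abcg1*, *Stard4* and *Npc1*). The NF-Y box CCAAT was present in 21 of the 26 promoters (80.8%), against 42.4% of the 14067 promoters of tested genes. The Sp1 box GGGCGG was present in 23 (88.5%, against 58.8%), and the E-box CACGTG in 6 (23.1%, against 10.4%). The sterol regulatory element, searched as TCAC and CCAC with any base between them, was found in 1 promoter, that of *Hmgcs1* (3.85%, against 1.33%), and a direct repeat of AGGTCA with any 4 bases between, the element of LXR, in none (0.0142% of the tested promoters held it). Among the 14 genes with a promoter entry that rose with glucose in control cells, 13 held the NF-Y box and 12 the Sp1 box. A match is a description of the letters in this window and not evidence of binding. An absence covers only these exact patterns in this window, and not variants of them. The stretches below are shown for the 6 genes with the smallest adjusted p for glucose in control cells. For each gene 1 NF-Y box is given, the one nearest the start. Each stretch has 29 bases on the strand of the gene, with the motif in capitals (ATTGG is CCAAT read on the opposite strand).
*Hmgcs1*, sterol regulatory element, chr13:119690204-119690232, + strand: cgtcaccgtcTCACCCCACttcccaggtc
*Hmgcs1*, CCAAT box, chr13:119690349-119690377, + strand: ctgagtcccgggATTGGcagaggtagccg
*Idi1*, CCAAT box, chr13:8885580-8885608, + strand: gtccaaggtgccATTGGctggcgaccgac
*Tm7sf2*, CCAAT box, chr19:6067881-6067909, − strand: ctcccagcgctgATTGGctactgtgctgg
*Dhcr7*, CCAAT box, chr7:143830153-143830181, + strand: aatccacttccgATTGGtcgtctgtgacc
*Insig1*, CCAAT box, chr5:28071184-28071212, + strand: cgccctcctcccATTGGctccggcggcct
*Cyp51*, CCAAT box, chr5:4104710-4104738, − strand: cgctgtccgccaCCAATctggtcctgaga
The middle base of the sterol regulatory element of *Hmgcs1* lay 133 bases before the annotated start. The NF-Y boxes of *Tm7sf2*, *Dhcr7* and *Cyp51* had their middle base 45, 47 and 27 bases before it. Those of *Idi1* and *Insig1* lay 12 and 214 bases before the start, and that of *Hmgcs1* lay 12 bases after it. In 5 of the 6 genes the NF-Y box was read on the opposite strand.

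Samples held between 47385513 and 82419400 estimated counts in total. Values are given as CPM, the counts of a gene scaled to a common library size adjusted by TMM factors, which set the bulk of genes level between samples. Genes are described as called where the adjusted p was below 0.05 and the fold change exceeded 1.5. *Pcbp2* was 50.7 to 73.4 CPM in control cells at low glucose and 15.5 to 19.2 CPM in *Pcbp2*βKO cells, and at high glucose 35.0 to 45.4 CPM and 5.81 to 10.03 CPM, so that every knockout sample lay below every control sample. All 10 β cell markers examined were above 0 in every sample, as were all alpha, delta, PP and ductal markers, so this does not show purity. With high glucose, 6 of the 10 β cell markers were called higher in control cells and 8 in *Pcbp2*βKO cells, and 0 lower. With knockout at low glucose, *Ins1* and *G6pc2* were called lower. The part of β cell content in the rise of the enzymes was not tested. The 5 macrophage markers summed to 18.8 to 68.9 CPM in control cells at low glucose, 2.44 to 15.5 CPM at high glucose, 27.47 to 157 CPM in *Pcbp2*βKO cells at low glucose and 1.71 to 13.9 CPM at high glucose. The summed markers of alpha, delta and PP cells reached their highest values in *Pcbp2*βKO cells at low glucose (1570 to 9437, 480.4 to 1316 and 1431 to 7425 CPM). Control replicate 4 and *Pcbp2*βKO replicates 4 and 5 at high glucose stood apart from the rest of their groups, with summed PP cell markers of 998.9, 1296 and 1456 CPM against 368.4 to 516.2 CPM in the other control samples and 470.3 to 730.5 CPM in the other *Pcbp2*βKO samples at that concentration. In sorted populations, fewer cells of a type and less RNA per cell cannot be told apart.

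The first question was how 72 hours in high glucose altered these genes in control β cells. Relative to the bulk of genes, 16 of the 32 rose and 4 fell, against 7.17% of all tested genes called higher and 6.7% called lower (13.9% in either direction). Among the 18 enzymes, 12 rose and 0 fell. The groups did not overlap for 16 genes that were higher and 4 that were lower (11.8% and 12.4% of all tested genes). The median log2 fold change of the 32 genes was 0.66, against 0.04 for all genes tested, and 26 of the 32 were above 0 (52.2% of all tested genes). Direction here is relative to other transcripts, because *Ins1* and *Ins2* together took 30.9% to 35.1% of TPM (length-scaled abundances with the same total in every sample) in control cells at low glucose and 56.9% to 60.5% at high glucose. With library totals in place of TMM factors, 6 genes were called higher and 4 lower and the median of all genes moved to -0.35. On log2(TPM + 1), 3 were called higher and 8 lower with a median of all genes of -0.24, and 5 of the 20 called genes had the opposite sign. With TPM rescaled by the TMM factors, an alternative added after the data were seen, 15 were called higher and 3 lower and no called gene changed sign.

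*Idi1*, which interconverts the isoprene units that farnesyl diphosphate is built from, led the response. It was 13.5, 13.3 and 18.4 CPM in the 3 control samples at low glucose and 43.0, 59.3, 87.4 and 60.3 CPM in the 4 at high glucose, a log2 fold change of 2.05 ± 0.25 (SE; edgeR, adjusted p = 0.000255). The groups were separated by a gap larger than the range at low glucose. *Tm7sf2*, a sterol reductase that acts after lanosterol, was 3.75, 3.67 and 3.47 CPM at low and 18.3, 10.96, 12.3 and 10.4 CPM at high glucose (log2 fold change 1.84 ± 0.25, adjusted p = 0.000465). *Hmgcs1*, the synthase that makes HMG-CoA, was 54.1, 47.9 and 50.6 CPM at low and 93.0, 96.6, 103 and 100.3 CPM at high glucose (0.95 ± 0.14, adjusted p = 0.000612). These 3 genes sit at the start, the middle and the sterol end of the pathway, and in none of them did the groups overlap.

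*Dhcr7*, which carries out a final reduction to cholesterol, was 10.5, 7.55 and 10.5 CPM in control cells at low and 36.9, 23.5, 30.6 and 20.05 CPM at high glucose (log2 fold change 1.54 ± 0.29, adjusted p = 0.00222). For *Cyp51*, the demethylase of lanosterol, the values were 57.2, 59.6 and 61.6 CPM at low and 135, 118, 151 and 107 CPM at high glucose (1.10 ± 0.21, adjusted p = 0.00273). *Nsdhl*, a dehydrogenase that takes part in removing sterol methyl groups, was 11.7, 12.2 and 10.7 CPM at low and 23.5, 19.1, 22.7 and 18.04 CPM at high glucose (0.85 ± 0.18, adjusted p = 0.00409). All high glucose samples exceeded all low glucose samples for these enzymes as well. The remaining enzymes that rose were *Pmvk*, *Mvd*, *Fdps*, *Sqle*, *Msmo1* and *Ebp*, with log2 fold changes between 0.63 for *Fdps* and 0.95 for *Mvd*. *Pmvk* and *Ebp* overlapped between groups through replicate 4 at high glucose, at 18.6 and 37.2 CPM. Some of these calls rested on single samples. That of *Ebp* was lost without replicate 1, 2 or 3 of either group (adjusted p up to 0.0794), that of *Mvd* without replicate 2 or 3 at low or 1 or 3 at high glucose (up to 0.152), and that of *Fdps* without replicate 1 or 3 of either group (up to 0.0601). *Pmvk* lost its call without replicate 1 or 3 at low or 1 at high glucose (up to 0.0734) and *Sqle* without replicate 1 or 2 at low glucose (up to 0.0575), whereas *Msmo1* and the 6 enzymes given by sample kept theirs in all 17 fits that each left out 1 sample.

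The 6 enzymes not called in control cells were *Acat2*, *Mvk*, *Fdft1*, *Lss*, *Hsd17b7* and *Sc5d*. Their log2 fold changes ran from 0.0033 for *Hsd17b7* to 0.78 for *Mvk* (adjusted p = 0.0941). *Fdft1* and *Lss*, which make squalene and lanosterol, had no overlap between groups (80.0 to 91.8 against 95.5 to 134 CPM for *Fdft1*) but adjusted p values of 0.0627 and 0.0628. *Mvk* was called with the replicate number as a block (log2 fold change 0.89, adjusted p = 0.00357). That fit held the control samples alone and called 5664 genes in all. The same samples without the block gave 2526, and the fit of all 17 samples 3156. Replicate 4 at high glucose had no partner in the block. *Mvk* was also called when that sample was left out of the fit of all samples (0.95, adjusted p = 0.034). Reads of *Acat2*, the cytosolic thiolase, can be shared with a near-identical neighboring copy in the mouse, so its level is uncertain.

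**Figure D1:**
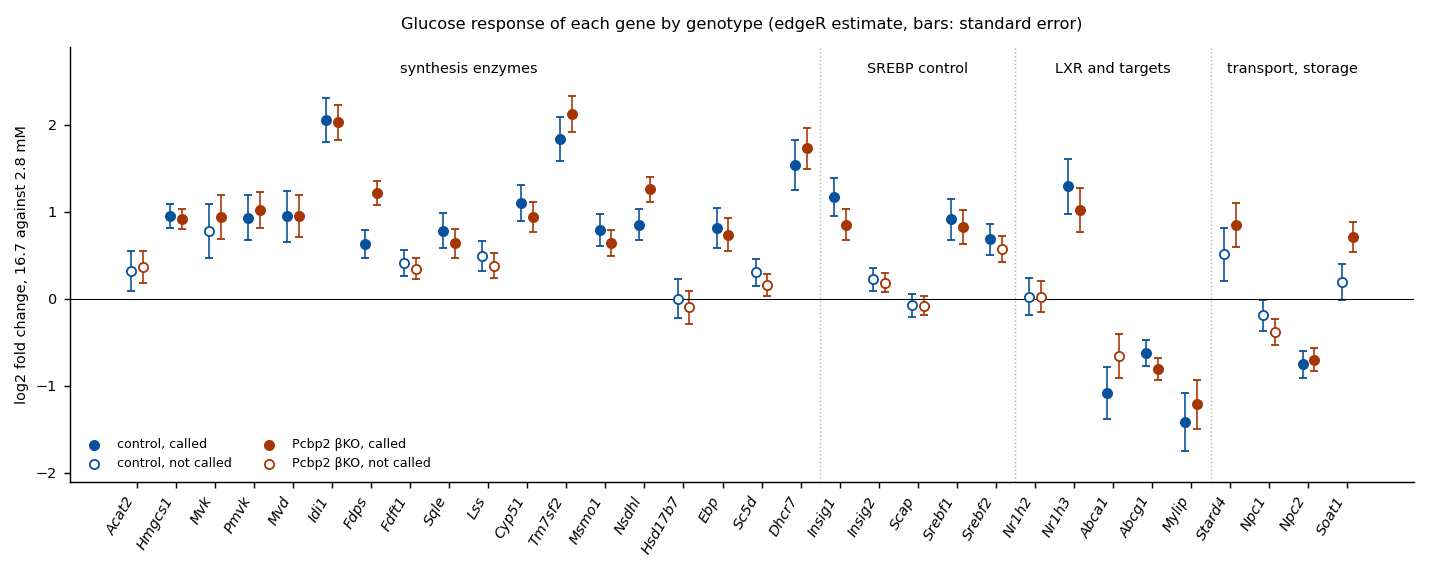
Log2 fold change of each of the 32 genes between 16.7 and 2.8 mM glucose (y axis) in control cells (blue) and Pcbp2βKO cells (brown), in pathway order, with the standard error of the edgeR estimate as bars and filled points for called genes. Idi1, Tm7sf2 and Dhcr7 stand highest and Abca1, Abcg1, Mylip and Npc2 lie below 0 in both genotypes; values are relative to the bulk of genes, and on log2(TPM + 1) 5 genes called in control cells and 12 called in Pcbp2βKO cells had the opposite sign.

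SREBP control genes moved with the enzymes in part. *Insig1*, which retains SCAP and is itself an SREBP target, was 67.5, 62.1 and 78.5 CPM in control cells at low glucose and 189, 146, 164 and 126 CPM at high glucose (log2 fold change 1.17 ± 0.22, adjusted p = 0.00221). *Srebf1* (0.91 ± 0.24, adjusted p = 0.0141) and *Srebf2* (0.68 ± 0.18, adjusted p = 0.0151), which encode the factors themselves, also rose with no overlap between groups. Each of these 2 calls was lost without replicate 2 or 3 at low glucose or replicate 1 at high glucose, and *Srebf2* had the opposite sign on log2(TPM + 1) (-0.13). Neither *Insig2* (0.22 ± 0.13, adjusted p = 0.262) nor *Scap* (-0.08 ± 0.14, adjusted p = 0.774) was called. Of the counts of *Srebf2*, 25.5% to 30.3% by group were assigned to noncoding transcripts.

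The LXR genes split. *Nr1h3*, which encodes LXRα, rose from 6.18 to 6.79 CPM in control cells at low glucose to 10.02 to 21.3 CPM at high glucose (log2 fold change 1.30 ± 0.31, adjusted p = 0.00991). Between 62.6% and 80.3% of its counts by group, however, belonged to noncoding transcripts, chiefly 1 with a retained intron, and over protein-coding transcripts alone the change was 0.91 (adjusted p = 0.256). Its call was also lost without replicate 2 at low glucose (adjusted p = 0.0516). *Nr1h2*, which encodes LXRβ, was not called (0.02 ± 0.21). The other 3 genes of this group, all LXR targets, fell. The group does not hold every LXR target. *Srebf1*, listed under SREBP control and also a target, rose (0.91 ± 0.24), and *Lpcat3*, counted among the neighbors below, rose in *Pcbp2*βKO cells (0.70). The sterol exporter *Abca1* was 207, 168 and 169 CPM at low and 85.9, 75.4, 52.5 and 129 CPM at high glucose (-1.08 ± 0.30, adjusted p = 0.0208). The exporter *Abcg1* went from between 146 and 186 CPM to between 94.1 and 131 CPM (-0.62 ± 0.15, adjusted p = 0.0103). *Mylip*, a ubiquitin ligase that removes lipoprotein receptors from the cell surface, went from between 6.27 and 9.25 CPM to between 1.31 and 4.74 CPM (-1.41 ± 0.33, adjusted p = 0.00863).

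None of these 3 targets overlapped between the glucose groups in control cells, but their calls differed in firmness. That of *Mylip* held in every fit without 1 sample (highest adjusted p = 0.0498). That of *Abca1* was lost without replicate 1 or 2 at low or replicate 2 or 3 at high glucose (up to 0.0818). That of *Abcg1* was lost without replicate 1 at low or replicate 3 or 4 at high glucose (up to 0.0668). With the control samples fitted alone the order turned: *Mylip* lost its call (-1.41, adjusted p = 0.053), while *Abca1* and *Abcg1* kept theirs. With the replicate block, *Abcg1* fell by 0.57 on the log2 scale (adjusted p = 0.00434) and so missed the fold threshold. Macrophages express these exporters strongly, and their summed markers also differed between the glucose groups, from 18.8 to 68.9 CPM at low to 2.44 to 15.5 CPM at high glucose. Among the markers, 1 of 5 (*Csf1r*) was called lower, and the part of macrophages in the fall of these genes was not tested.

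Of the transport and storage genes, 1 was called in control cells. *Npc2*, the soluble lysosomal protein that hands cholesterol to the membrane carrier *Npc1*, was 225, 269 and 184 CPM at low and 148, 135, 106 and 147 CPM at high glucose (log2 fold change -0.75 ± 0.16, adjusted p = 0.00442), and the groups did not overlap. *Npc1* (-0.19 ± 0.18), the sterol carrier *Stard4* (0.51 ± 0.31) and *Soat1* (0.19 ± 0.21), which esterifies cholesterol for storage, were not called. The macrophage sum was also lower at high glucose in these samples, and their part in the fall of *Npc2* was not tested.

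**Figure D2:**
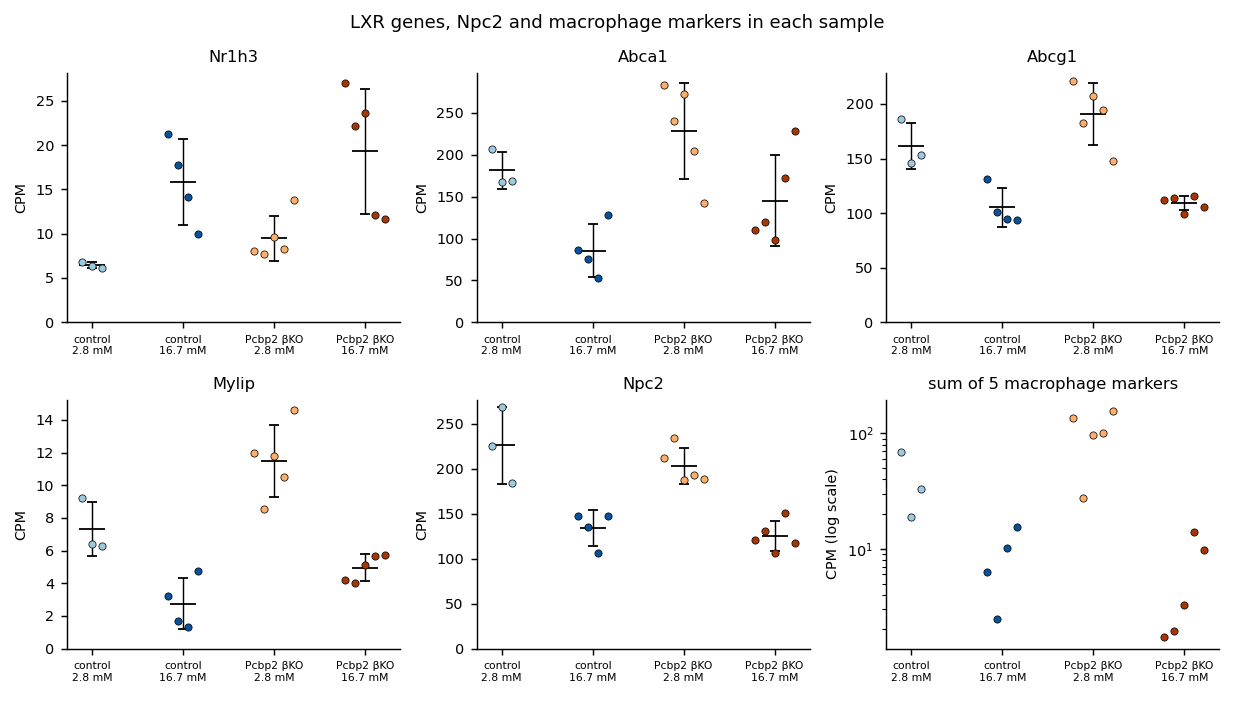
CPM (y axis) of Nr1h3, Abca1, Abcg1, Mylip and Npc2 and of the sum of 5 macrophage markers (log scale) in each sample of the 4 groups, with horizontal and vertical bars for mean and SD except in the last panel. The 4 genes other than Nr1h3 were lower at 16.7 mM in each control sample than at 2.8 mM, and the macrophage sum was also lower, at 2.44 to 15.5 against 18.8 to 68.9 CPM.

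The same question was asked of *Pcbp2*βKO cells, in a contrast of their 2 group means. It came from the fit of all 17 samples, so control samples entered through the filter, TMM factors and estimate of spread. In *Pcbp2*βKO cells, 18 of the 32 genes rose and 3 fell, against 13.4% of all tested genes called higher and 10.4% called lower (23.9% in either direction). Among the enzymes, 13 of 18 rose and 0 fell, and the median of the 32 genes was 0.68, against 0.01 for all genes, with 25 of the 32 above 0 (50.7% of all tested genes). An unadjusted p under 0.05 was reached by 26 of the 32, against 39.7% of all tested genes, and by 23 in control cells, against 29.3%. The groups did not overlap for 12 genes that were higher and 3 that were lower (10.9% and 10.8% of all tested genes). Library totals gave 5 higher and 6 lower with a median of all genes of -0.47, and log2(TPM + 1) gave 2 higher and 12 lower with 12 of the 21 called genes at the opposite sign (median of all genes -0.33), while TPM rescaled by the TMM factors gave 16 higher and 3 lower. *Ins1* and *Ins2* took 19.7% to 32.9% of TPM in these cells at low and 58.1% to 62.6% at high glucose.

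The leading genes were again *Tm7sf2* and *Idi1*. *Tm7sf2* was 2.904, 2.96, 3.73, 3.28 and 3.17 CPM at low and 15.7, 18.2, 16.5, 10.7 and 9.09 CPM at high glucose in *Pcbp2*βKO cells (log2 fold change 2.13 ± 0.21, adjusted p = 3.07e-06). *Idi1* was 12.2, 12.8, 10.7, 12.8 and 16.5 CPM at low and 73.5, 59.1, 51.8, 42.9 and 38.1 CPM at high glucose (2.03 ± 0.20, adjusted p = 4.02e-06). In both, replicates 4 and 5 were the lowest of the high glucose group yet stayed above every low glucose sample. *Fdps*, which makes farnesyl diphosphate, the branch point to sterols and to protein prenylation, was 52.3, 55.6, 61.5, 64.6 and 71.0 CPM at low and 167, 137, 159, 137 and 110.5 CPM at high glucose (1.22 ± 0.14, adjusted p = 8.96e-06). *Nsdhl* was 9.32, 8.39, 7.99, 7.75 and 5.77 CPM at low and 22.6, 20.3, 17.7, 15.8 and 17.4 CPM at high glucose (1.26 ± 0.14, adjusted p = 1.14e-05). No value overlapped between the groups for these 4 enzymes.

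*Hmgcs1* was 51.5, 49.6, 52.7, 54.9 and 54.4 CPM in *Pcbp2*βKO cells at low and 121, 118, 83.9, 86.6 and 86.9 CPM at high glucose (log2 fold change 0.92 ± 0.11, adjusted p = 1.9e-05). *Dhcr7* was 6.95, 7.60, 7.94, 7.06 and 12.1 CPM at low and 30.6, 34.7, 36.1, 17.1 and 19.9 CPM at high glucose (1.73 ± 0.23, adjusted p = 3.99e-05). In both genes replicates 4 and 5 at high glucose were below replicates 1 and 2 but above every low glucose sample. For *Cyp51* the values were 49.2, 59.0, 48.8, 51.6 and 86.6 CPM at low and 147, 122, 121, 90.8 and 87.3 CPM at high glucose (0.94 ± 0.17, adjusted p = 0.000501), and replicate 5 at low glucose came within 1 CPM of the lowest high glucose sample. *Abcg1* fell from 221, 183, 208, 194 and 148 CPM to 112, 114, 99.1, 115 and 106 CPM (-0.80 ± 0.13, adjusted p = 0.000142), again with no overlap. The macrophage sum fell as well in these cells, from 27.47 to 157 CPM to 1.71 to 13.9 CPM, with 5 of 5 markers called lower, and its part in the fall of *Abcg1* was not tested.

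Of the other genes called in *Pcbp2*βKO cells, *Mvk*, *Pmvk*, *Mvd*, *Sqle*, *Msmo1* and *Ebp* among the enzymes rose by 0.64 to 1.02 on the log2 scale, and *Insig1* (0.85), *Srebf1* (0.82), *Nr1h3* (1.02), *Stard4* (0.85) and *Soat1* (0.71) rose too. For *Nr1h3* the change was 0.12 over protein-coding transcripts (adjusted p = 0.858). *Mylip* (-1.21 ± 0.28, adjusted p = 0.00289) and *Npc2* (-0.70 ± 0.13, adjusted p = 0.000643) fell. In the same comparison 5 of 5 macrophage, 2 of 5 alpha, 2 of 3 delta and 2 of 2 PP cell markers were called lower, and 1 alpha cell marker (*Ttr*) higher, and the part of these cells in the fall of *Mylip* and *Npc2* was not tested. *Srebf2* had an adjusted p of 0.00615 but a log2 fold change of 0.57, just below the fold threshold. *Abca1* was not called (-0.65 ± 0.25, adjusted p = 0.0593), with replicates 4 and 5 at high glucose at 172 and 228 CPM against 97.7 to 119 CPM in the other three. Without the 3 samples that stood apart, *Abca1* fell by 1.11 on the log2 scale and was called (adjusted p = 0.000808), while *Stard4* was not (0.68, adjusted p = 0.07). The call of *Sqle* was lost without replicate 2 at high glucose, that of *Msmo1* without replicate 3 at low or 1 at high glucose, and that of *Soat1* without replicate 1 at high glucose, with log2 fold changes down to 0.55, 0.52 and 0.58.

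**Figure D3:**
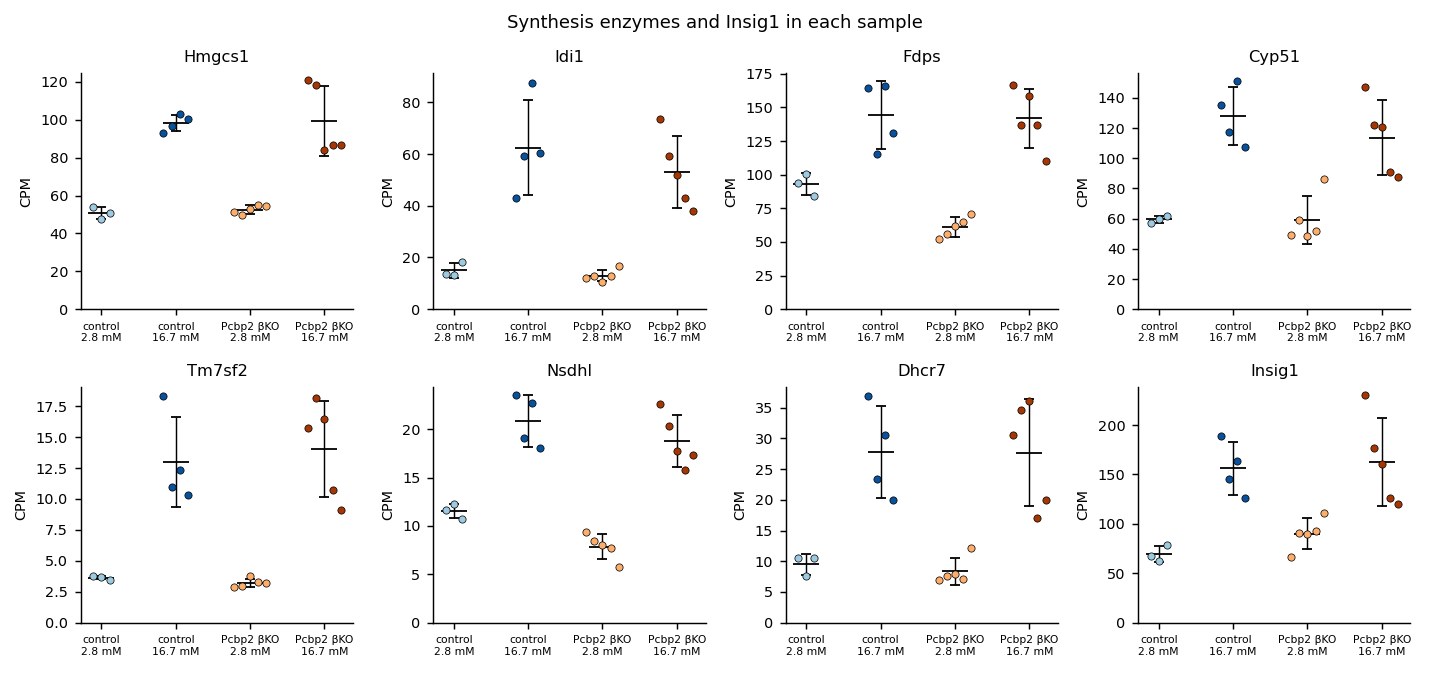
CPM (y axis, from 0) of 7 synthesis enzymes and Insig1 in each sample of the 4 groups, with bars for mean and SD. All samples at 16.7 mM lay above all samples at 2.8 mM of the same genotype in these 8 genes, on a scale relative to the bulk of genes; on log2(TPM + 1), Fdps in control cells and Hmgcs1, Cyp51 and Insig1 in Pcbp2βKO cells had the opposite sign.

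The 2 glucose comparisons contrast different samples, but both came from 1 fit with a shared filter, TMM factors and spread, so they are not independent. Leaving out control replicate 3 or 4 at high glucose turned *Abca1* in *Pcbp2*βKO cells to called (edgeR, adjusted p = 0.045 and 0.0378). Fitted alone, the *Pcbp2*βKO samples kept all 21 of their calls. Of the 32 genes, 18 were called in both, which is 90.0% of the calls in control cells and 85.7% of those in *Pcbp2*βKO cells. Over all tested genes, 2581 were called in both, 81.8% of the calls in control cells and 47.5% of those in *Pcbp2*βKO cells. Whether the samples of the 2 genotypes shared a batch is not known, and same-numbered samples of different genotypes deviated from their group means with r up to 0.355 across genes. *Srebf2* and *Abca1* were called in control cells alone and *Mvk*, *Stard4* and *Soat1* in *Pcbp2*βKO cells alone, but a call in 1 genotype does not show a difference between them. Neither genotype gave a call for *Acat2*, *Fdft1*, *Lss*, *Hsd17b7*, *Sc5d*, *Insig2*, *Scap*, *Nr1h2* and *Npc1*. Steps of the pathway thus differed in size: *Hsd17b7* and *Sc5d* lay between -0.10 and 0.31 in both genotypes, while *Idi1* and *Tm7sf2* lay between 1.84 and 2.13.

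The samples that stood apart were low for many of the genes that rose. Control replicate 4 was the lowest of its group in 11 of the 16 genes that rose (68.8%), which is no more than the 74.8% of the 1631 genes called higher over the whole table. *Pcbp2*βKO replicates 4 and 5 were the lowest pair in 15 of 18 (83.3%), against 51.7% of 3055. Leaving out these 3 samples left 21 genes called in each genotype, 17 higher and 4 lower in both cases.

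**Figure D4:**
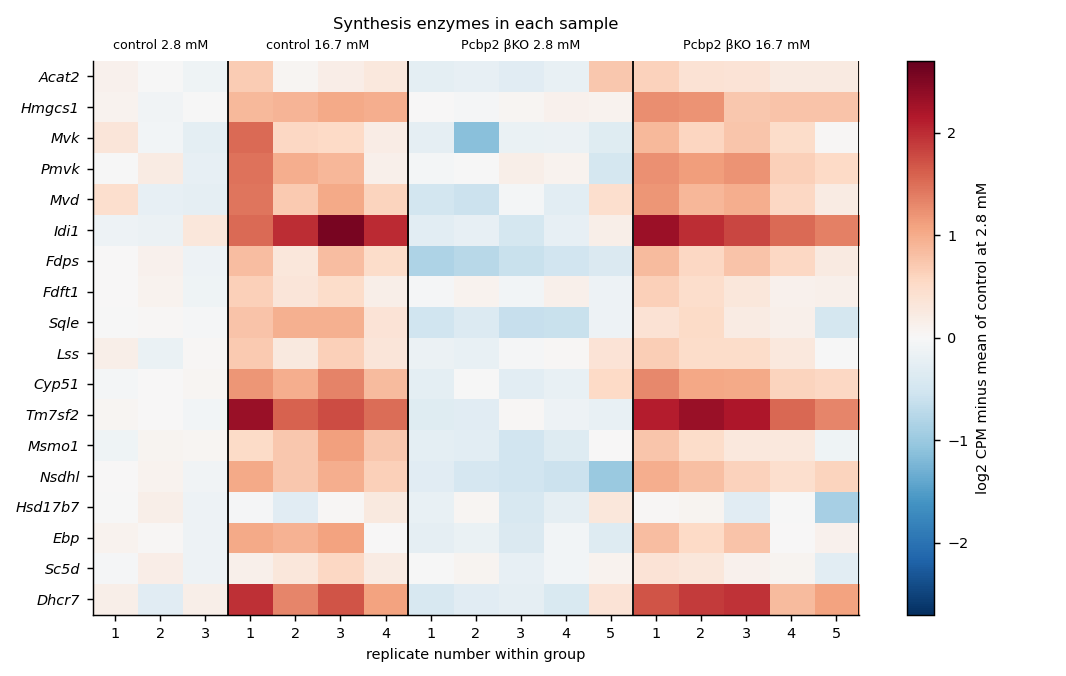
Log2 CPM of the 18 synthesis enzymes (rows, in pathway order) in each of the 17 samples (columns, grouped), minus the mean of control cells at 2.8 mM; red is higher and blue lower, on a scale relative to the bulk of genes. Idi1, Tm7sf2 and Dhcr7 are darkest at 16.7 mM in both genotypes, replicate 4 of control cells and replicates 4 and 5 of Pcbp2βKO cells are paler for most enzymes, and Fdps is blue in the 5 Pcbp2βKO samples at 2.8 mM.

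Levels between genes were compared per transcript length, in TPM. In control cells at low glucose, *Sqle*, the oxygen-dependent epoxidase of squalene, was highest at 94.3 ± 2.9 TPM (SD, n = 3), followed by *Fdps* at 83.4 ± 2.7 TPM, *Msmo1* at 72.7 ± 4.8 TPM and *Npc2* at 65.8 ± 9.3 TPM. *Msmo1* and *Npc2* were within their spread of each other. The genes with the largest glucose response were among the low ones, *Idi1* at 4.97 ± 1.17 TPM, *Dhcr7* at 4.51 ± 1.16 TPM and *Tm7sf2* at 2.87 ± 0.10 TPM, and *Mylip* was last at 2.30 ± 0.49 TPM. Of other genes at such levels, *Mvd* and *Nr1h3* were called with glucose in control cells. *Mvk* (4.00 ± 0.68 TPM), *Hsd17b7* (3.36 ± 0.53 TPM) and *Npc1* (3.32 ± 0.27 TPM) were not. *Sqle*, *Fdps* and *Msmo1* also filled the first 3 places in control cells at high glucose (93.8 ± 15.8, 74.1 ± 16.6 and 72.9 ± 19.4 TPM, n = 4), where their ranges overlapped. *Npc2* stood seventh there at 23.1 ± 6.1 TPM.

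The second question was what loss of *Pcbp2* altered. At low glucose, 2 of the 32 genes were called and both were lower, against 1.78% of all tested genes called lower and 2.04% in either direction. Groups did not overlap for 1 gene that was higher (*Nr1h3*, not called) and 4 that were lower (4.07% and 6.89% of all tested genes), and 4 of the 32 had an unadjusted p under 0.05 (12.9%). The larger change was in *Soat1*, the enzyme of the endoplasmic reticulum that esterifies cholesterol into droplets (chr1:156252095-156303864, − strand, GRCm39). Its level was 61.7, 50.8 and 55.9 CPM in control cells and 22.0, 18.5, 17.2, 18.8 and 13.7 CPM in *Pcbp2*βKO cells, a log2 fold change of -1.64 ± 0.19 (adjusted p = 5.4e-05) or 3.12-fold lower. At high glucose it was 61.8, 62.3, 78.5 and 53.8 CPM in control cells and 39.8, 35.3, 28.8, 23.0 and 20.6 CPM in *Pcbp2*βKO cells (-1.12 ± 0.18, adjusted p = 0.00175, 2.18-fold lower), and it was there the 1 gene of the 32 called, against 1.41% of all tested genes called lower and 1.7% in either direction. There the groups did not overlap for 0 genes that were higher and 1 that was lower (1.85% and 2.64% of all tested genes), and 5 of the 32 had an unadjusted p under 0.05 (12.1%). No knockout sample reached the lowest control sample at either concentration. At low glucose the summed markers of delta cells (250.5 to 389.7 CPM in control and 480.4 to 1316 CPM in *Pcbp2*βKO cells) and of PP cells (1111 to 1208 and 1431 to 7425 CPM) did not overlap between genotypes, while those of alpha cells did (690.9 to 2623 and 1570 to 9437 CPM). At high glucose each of them overlapped, at 147.4 to 335.1 and 198.5 to 565.4 CPM for delta, 368.4 to 998.9 and 470.3 to 1456 CPM for PP and 538.2 to 1572 and 952.6 to 1813 CPM for alpha cells. No marker of these 3 cell types was called with knockout at either concentration, and their part in the fall of *Soat1* and *Fdps* was not tested.

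The call of *Soat1* held in every alternative and in every fit without 1 sample, the latter with log2 fold changes between -1.72 and -1.56 at low and between -1.25 and -1.01 at high glucose. Both of its main coding transcripts were lower in *Pcbp2*βKO cells. The shorter one, of 2925 bases, was 13.8 ± 1.2 TPM in control cells and 4.58 ± 1.09 TPM in *Pcbp2*βKO cells at low glucose, and 8.96 ± 1.66 and 3.55 ± 1.26 TPM at high glucose. The longer one, of 8371 bases, was 1.503 ± 0.49 and 0.63 ± 0.18 TPM at low and 1.08 ± 0.35 and 0.52 ± 0.12 TPM at high glucose. Within *Pcbp2*βKO cells, replicates 4 and 5 at high glucose, at 23.0 and 20.6 CPM, lay close to the low glucose samples.

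*Fdps* was the other call at low glucose, at 94.0, 100.4 and 84.5 CPM in control cells and 52.3, 55.6, 61.5, 64.6 and 71.0 CPM in *Pcbp2*βKO cells (log2 fold change -0.61 ± 0.15, adjusted p = 0.0428). The groups did not overlap, but the call was lost in 10 of the 17 fits without 1 sample, namely those that left out any 1 control sample at low glucose, any 1 of *Pcbp2*βKO replicates 1 to 4 at low glucose, or any 1 of *Pcbp2*βKO replicates 2 to 4 at high glucose (adjusted p up to 0.182). The call was also lost with library totals, on log2(TPM + 1), with no filter and over protein-coding transcripts (adjusted p = 0.0481, but under 1.5-fold). At high glucose *Fdps* was 165, 115, 166 and 131 CPM in control cells and 167, 137, 159, 137 and 110.5 CPM in *Pcbp2*βKO cells (-0.02 ± 0.14, 95% interval -0.30 to 0.25), with overlapping groups. Next in order at low glucose came *Nsdhl* and *Sqle*, which were not called. *Nsdhl* was 11.7, 12.2 and 10.7 CPM in control and 5.77 to 9.32 CPM in *Pcbp2*βKO cells (-0.56 ± 0.16, adjusted p = 0.0943), with no overlap. *Sqle* was 268, 275 and 262 CPM in control and 185, 206, 175, 178 and 243 CPM in *Pcbp2*βKO cells (-0.44 ± 0.19, adjusted p = 0.313), also without overlap.

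After *Soat1*, the smallest adjusted p values at high glucose belonged to *Sqle*, *Mylip* and *Abca1*. *Sqle* was 455, 526, 526 and 345 CPM in control and 355, 385, 314, 295 and 192 CPM in *Pcbp2*βKO cells (log2 fold change -0.59 ± 0.17, adjusted p = 0.116). *Mylip* was 3.23, 1.71, 1.31 and 4.74 CPM in control and 4.19, 4.01, 5.11, 5.67 and 5.75 CPM in *Pcbp2*βKO cells (0.85 ± 0.30, adjusted p = 0.218). The overlap in both came from control replicate 4, and without it *Sqle* (-0.72, adjusted p = 0.0296) and *Mylip* (1.24, adjusted p = 0.0192) were called as well. *Abca1* was 85.9, 75.4, 52.5 and 129 CPM in control and 109.8, 119, 97.7, 172 and 228 CPM in *Pcbp2*βKO cells (0.76 ± 0.27, adjusted p = 0.221), with overlap. The 18 enzymes had a median of -0.18 at low and -0.16 at high glucose, with 3 and 4 of them above 0 (53.3% and 51.4% of all tested genes were above 0), but these counts moved with the scale. At low glucose 8 were above 0 with library totals and 9 on log2(TPM + 1), with medians of -0.05 and -0.01, and at high glucose 5 and 0, with medians of -0.14 and -0.19. Without the 3 samples that stood apart, 7 were above 0 at high glucose and the median was -0.03. The 5 LXR genes were above 0 in both comparisons, with medians of 0.33 and 0.29, except that 4 of 5 were above 0 at high glucose on log2(TPM + 1) and also without the 3 samples. No LXR gene was called.

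**Figure D5:**
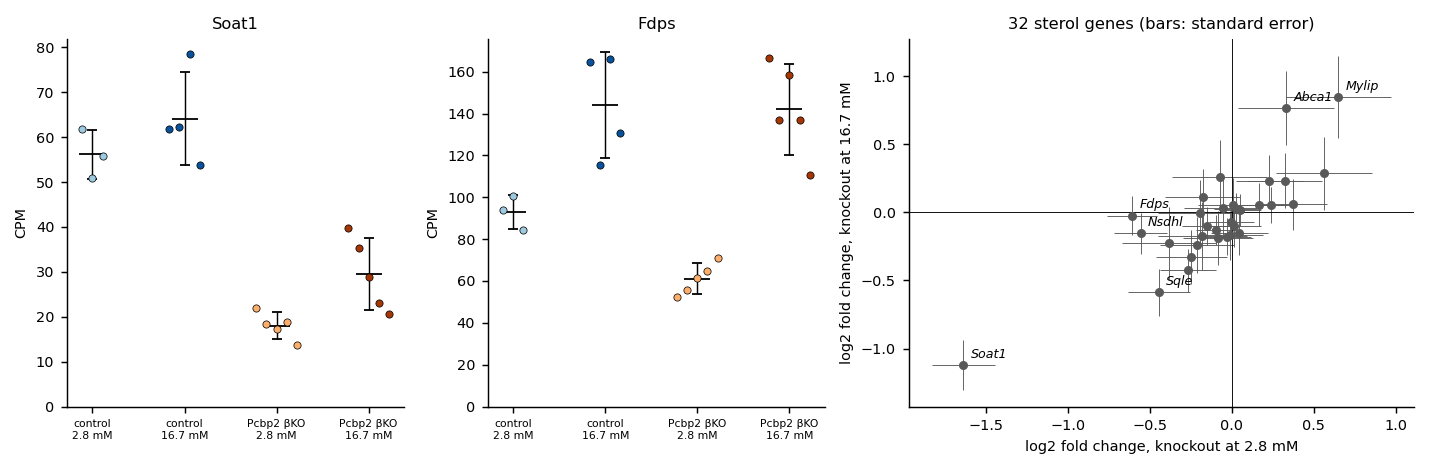
Left and middle, CPM (y axis, from 0) of Soat1 and Fdps in each sample of the 4 groups with bars for mean and SD. Right, log2 fold change of the 32 genes with knockout at 2.8 mM (x axis) and 16.7 mM (y axis) with standard errors; Soat1 lies apart at -1.64 and -1.12, while Fdps is at -0.61 and -0.02.

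The last comparison asked whether the glucose response differed between genotypes. None of the 32 genes was called by edgeR for the interaction, against 0.00439% of all tested genes (1 of 22762), and 1 of the 32 had an unadjusted p under 0.05, against 4.58% of all genes, while 14 of the 32 were above 0 (49.1% of all genes). DESeq2 called 0 of the 32 and 32 genes in all. That 1 gene was *Fdps*, whose response was larger in *Pcbp2*βKO cells by 0.59 ± 0.21 on the log2 scale (95% interval 0.18 to 0.99, adjusted p = 1.0). *Soat1* followed at 0.52 ± 0.27 (95% interval -0.01 to 1.04), then *Nsdhl* at 0.40 ± 0.22 (-0.03 to 0.84) and *Insig1* at -0.32 ± 0.27 (-0.85 to 0.22). For the leading enzymes the difference was -0.03 for *Idi1* (95% interval -0.63 to 0.58), 0.29 for *Tm7sf2* (-0.32 to 0.90) and -0.03 for *Hmgcs1* (-0.38 to 0.31). Standard errors ran from 0.16 to 0.43, so that differences of this size could not be resolved for every gene.

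Genes of neighboring steps were counted in the same fits from a list of 47 (branches of the pathway, SREBP processing and sterol-regulated degradation, and sterol uptake, oxysterol and transfer proteins), of which 45 were tested. In control cells, high glucose gave 3 calls higher (6.67%, against 7.17% of all tested genes) and 2 lower (4.44%, against 6.7%), shares no larger than those over all genes. *Dhdds* (log2 fold change 0.66), which builds dolichol precursors, *Gramd1c* (0.69), a sterol transfer protein of the endoplasmic reticulum, and *Fbxw7* (0.59), a ubiquitin ligase subunit, rose. *Erlin1* fell from a mean of 60.7 to 28.6 CPM (-1.09 ± 0.23, adjusted p = 0.00471) and *Erlin2* from 154 to 94.1 CPM (-0.71 ± 0.18, adjusted p = 0.0114). The erlins form a complex of the endoplasmic reticulum that restrains SREBP activation and takes part in degrading sterol-regulated proteins. The median of the 45 genes was -0.0026, against 0.66 for the 32.

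In *Pcbp2*βKO cells, 14 of the 45 neighbors were called with glucose (31.1%, against 23.9% of all tested genes), 13.3% higher and 17.8% lower (13.4% and 10.4% of all tested genes). The 6 that rose were *Fntb*, *Rnf145*, *Lrp8*, *Osbpl10*, *Gramd1c* and *Lpcat3*, and the 8 that fell were *Ggps1*, *Erlin1*, *Ube2j2*, *Vldlr*, *Tmem97*, *Osbpl8*, *Gramd1b* and *Soat2*. *Erlin1* fell from a mean of 44.9 to 25.8 CPM (-0.80 ± 0.19, adjusted p = 0.0041). *Gramd1c* rose with glucose in both genotypes, but had the opposite sign on log2(TPM + 1) in both, and its call in control cells was lost without replicate 1 or 2 at low or 3 at high glucose. With knockout, 1 of the 45 was called at each concentration (2.22%, near the 2.04% and 1.7% of all tested genes), in both cases *Lipa*, the lysosomal lipase that releases cholesterol from the esters that *Soat1* and lipoproteins supply. *Lipa* was 23.0 to 24.5 CPM in control and 13.4 to 17.8 CPM in *Pcbp2*βKO cells at low glucose (-0.62 ± 0.16, adjusted p = 0.0476), and 16.9 to 20.1 CPM against 8.66 to 14.3 CPM at high glucose (-0.61 ± 0.15, adjusted p = 0.0398). The groups did not overlap, but the calls were lost in 12 and 10 of the 17 fits without 1 sample, with adjusted p up to 0.168 and 0.113. No neighbor was called for the interaction.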

How the data were processed

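RNA sequencing was performed on sorted β cells in 17 samples. The authors pseudoaligned paired-end reads to the GRCm39 transcriptome with Kallisto and deposited, per sample and transcript, estimated counts that are not normalized between samples, and TPM scaled to effective length and to the same total in each sample. The deposited effective lengths (in bases) entered 1 alternative. The study's edgeR design held a batch factor whose levels the labels do not give, so it was not used here.

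Estimated counts of 142376 transcripts were summed per gene and rounded. In edgeR 4.0.16 (R 4.3.3), TMM factors, the default filter on low counts with the 4 groups, and a quasi-likelihood F test on 4 group means over all samples were used. P values were adjusted by Benjamini-Hochberg over all 22762 genes tested, and calls required adjusted p values below 0.05 with more than 1.5-fold change, the thresholds of the study. Standard errors were taken from the estimate and its F statistic, and 95% intervals are normal intervals from them. Such intervals are narrower than the F test implies. For glucose in control cells, that of *Sc5d* ran from 0.005 to 0.61, although its unadjusted p from the F test was 0.0614. No single value was tested by permutation, and lists were described by counts and medians. Alternatives were other size factors, DESeq2 1.42.0, limma 3.58.1 on log2(TPM + 1), no filter, protein-coding transcripts alone, effective length offsets, the compared groups alone, a replicate block and leaving out samples. The fits were also run on simulated counts with the same mean in all groups, except for a set of genes of which as many were raised as lowered. These counts did not copy the shift in insulin share between glucose concentrations, so they cannot speak to the dependence of calls on the scale. Every value has replicates whose spread includes counting error.

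Genes and lists were chosen with earlier results of these data known. All 32 genes could be named. Sample values went to the called genes, or to the 8 with the smallest adjusted p where more were called, and to at least 4 genes per comparison, with the LXR targets added for their roles after their values were seen. Replicate numbers may pair control samples between glucose concentrations, since same-numbered samples deviated together (r = 0.198, 0.123 and 0.257 across genes). In *Pcbp2*βKO cells such r ran from 0.066 to 0.193. The reported tests ignored any pairing, which entered only the replicate block. In the other pairs of groups at least 1 such r was at or below 0.1. Marker lists for ductal, acinar, endothelial and stellate cells, summed per sample, reached 384.0 to 1183, 1.62 to 23.6, 0.26 to 1.15 and 0.25 to 1.23 CPM. In any comparison, 0 of their tested genes were called. Only 1 of 5 acinar and 2 of 4 endothelial markers passed the filter on low counts, so the others could not be called. Gene coordinates come from GENCODE vM39 on GRCm39 and promoters from RefSeq on GRCm38.p6.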

Additional observations from a re-analysis of the deposited data

Results flagged for a closer look

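In 96 groups of 4 or 5 samples, the highest or lowest sample was compared with the rest by its gap as a share of the range (Dixon's 95% limit), and 7 groups held such a sample, where chance gives about 1 in 20. Replicate 5 of *Pcbp2*βKO cells at low glucose accounted for 3 of them, with *Acat2* at 31.9 CPM (15.5 to 16.6 CPM in the other samples), *Cyp51* at 86.6 CPM (48.8 to 59.0 CPM) and *Dhcr7* at 12.1 CPM (6.95 to 7.94 CPM). The same sample had the highest summed PP cell markers, 7425 CPM, and the highest summed macrophage markers, 157 CPM, of its group, and their part in these levels was not tested. Replicate 2 of that group had *Mvk* at 2.73 CPM (4.73 to 5.32 CPM in the others). *Scap* was 111 CPM in control replicate 1 at high glucose (72.0 to 77.8 CPM). In *Pcbp2*βKO cells at high glucose, *Srebf2* was 95.6 CPM in replicate 3 (113 to 119 CPM) and *Nr1h2* was 38.0 CPM in replicate 5 (26.3 to 29.5 CPM).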

How the results depend on the processing

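The scale changed the number of calls for glucose, and on log2(TPM + 1) also the direction of part of them. With library totals, 10 genes were called in control and 11 in *Pcbp2*βKO cells, with medians of 0.27 and 0.18. On log2(TPM + 1), 11 were called in control cells, and the medians were -0.12 in control and -0.40 in *Pcbp2*βKO cells. Values of opposite sign there were, in control cells, *Fdps* -0.20, *Sqle* -0.023, *Msmo1* -0.035, *Ebp* -0.056, *Srebf2* -0.13 and *Gramd1c* -0.14, and in *Pcbp2*βKO cells *Hmgcs1* -0.13, *Mvk* -0.035, *Mvd* -0.050, *Sqle* -0.40, *Cyp51* -0.046, *Msmo1* -0.43, *Ebp* -0.31, *Insig1* -0.12, *Srebf1* -0.064, *Nr1h3* -0.23, *Stard4* -0.11, *Soat1* -0.39 and *Gramd1c* -0.26. No other alternative turned a sign among the genes called. With knockout at low glucose, 1 gene was called under library totals, log2(TPM + 1), no filter and protein-coding transcripts, and at high glucose 2 under log2(TPM + 1). Leaving out 1 sample gave 13 to 20 calls for glucose in control cells (13 without replicate 2 at low glucose), 19 to 24 in *Pcbp2*βKO cells, 1 to 2 and 1 to 3 for the knockout at low and high glucose, and 0 for the interaction, with medians of 0.56 to 0.72, 0.58 to 0.79, -0.11 to 0.00, -0.12 to 0.03 and -0.11 to 0.06. With the replicate block, 20 genes were called for glucose in control cells (*Mvk* gained, *Abcg1* lost), 21 in *Pcbp2*βKO cells, 2 and 1 for the knockout and 0 for the interaction, and no other call of these genes changed. The block was fitted on the compared groups alone, where samples without a same-numbered partner carried no information on the contrast. Over all genes it gave 1039 calls for the knockout at low glucose. The same groups without the block gave 488, and the fit of all 17 samples 464. Fitting the control samples alone left 15 of the 20 calls for glucose, without *Srebf1*, *Srebf2*, *Pmvk*, *Ebp* and *Mylip* (adjusted p 0.053 to 0.0625). The causes were not tested. With 3 control samples at low glucose, calls near the threshold turned on single samples.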
